A study of Homo sapiens with 6 samples.

Results

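The DNA damage signalling and repair genes are 57 listed genes that code for proteins that sense broken or altered DNA, stop the cell cycle or rebuild the strand. They were matched by symbol among the 26485 genes of a count table from PC-9, a human lung adenocarcinoma cell line driven by a mutated EGFR gene. All 57 had a row, 56 under their current symbol and MRE11 under its older symbol MRE11A. The series has 2 groups of 3 samples. One group carried a stable hairpin RNA (shRNA) that targets IFITM3, an interferon-induced membrane protein, and is called shIFITM3 here. The other carried a control shRNA and is called shControl. Both were grown in RPMI medium with serum and antibiotics, and the labels name no drug treatment, time point or second hairpin. The labels call the samples biological replicates and do not say whether the cells were transduced separately. The p-values measure the spread between these samples, which may come from 1 stable population per group. The count table's column names call the control EV and the labels call it shControl, so whether it was an empty vector or a control hairpin was not settled.

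Cells meet DNA damage with a signalling layer and several repair routes. The kinases ATM and ATR, with mediators such as MDC1 and TP53BP1, mark breaks and stalled replication forks and activate the checkpoint kinases CHEK2 and CHEK1. Double-strand breaks are rejoined directly by non-homologous end joining or copied from the sister chromatid by homologous recombination, which needs resected ends and works mainly in S and G2 phase. The Fanconi anaemia pathway opens crosslinks between the strands, mismatch repair corrects copying errors, base excision repair replaces small damaged bases, and nucleotide excision repair cuts out bulky lesions. Many genes of recombination and the Fanconi pathway are transcribed most in cycling cells.

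The libraries held 21342028 to 27493145 counts, except shControl 2 with 77228760. Levels are given as CPM, a gene's counts scaled to the library's total, and each ± is the SD over n = 3 samples. The targeted gene IFITM3 went from 60.1 ± 2.91 CPM in the control cells to 11 ± 1.65 CPM after knockdown (log2 fold change -2.45), in edgeR's quasi-likelihood test with Benjamini-Hochberg adjustment over 14018 tested genes (adjusted p = 5.97e-18). Summed over 8 epithelial markers, the level was 7713 to 7809 CPM in shControl and 6351 to 6571 CPM in shIFITM3, and the markers went both ways: KRT8, KRT18 and CDH1 fell, EPCAM and CLDN4 rose, and KRT19, CLDN7 and MUC1 were not called. The 5 lung lineage markers summed to at most 0.522 CPM, and SFTA3 was at 0 in every sample. Leukocyte markers summed to 63.5 to 71.2 CPM in shControl and 73.1 to 78.6 CPM in shIFITM3, and of the 6 listed only CD68 was high enough to be tested. Fibroblast markers summed to at most 13.7 CPM, with DCN and LUM at 0, and endothelial markers to 3.53 to 4.38 CPM in shControl and 5.52 to 6.28 CPM in shIFITM3. The 3 endothelial markers tested went both ways: PECAM1 fell and CDH5 and KDR rose, with log2 fold changes of -1.66, 1.68 and 3.03. No endothelial marker passed 3.11 CPM in any sample. The part of these sums in the repair results was not tested.

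Most of the 57 repair genes were lower in shIFITM3 cells, and among the 7 listed genes of nucleotide excision repair more rose than fell. Further genes of that route, given below, went both ways. Of the 57 genes, all tested, 35 fell (61.4%), 6 rose (10.5%) and 16 did not pass the adjusted p threshold of 0.05. Among all tested genes 28.4% fell and 27.7% rose by the same rule. Every shIFITM3 sample lay below every shControl sample for 37 of the 57 genes, which held for 30.8% of all tested genes, and above for 8, which held for 30.1%. The other 12 genes overlapped between the groups. The median log2 fold change of the 57 was -0.21, and that of all tested genes was 0.00 to 2 decimals. The changes were small. None of the 57 passed a doubling or halving on the log2 scale, against 6.77% of all tested genes, and 5 passed a 1.5-fold difference in size, against 18.4% of all tested genes: FANCI, FANCM, PARP2 and RAD51D downwards and ERCC5 upwards. When the test asked for a change of more than 1.5-fold, no repair gene passed. In bulk RNA, fewer cells in a given phase and less RNA per cell cannot be told apart.

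**Figure D1:**
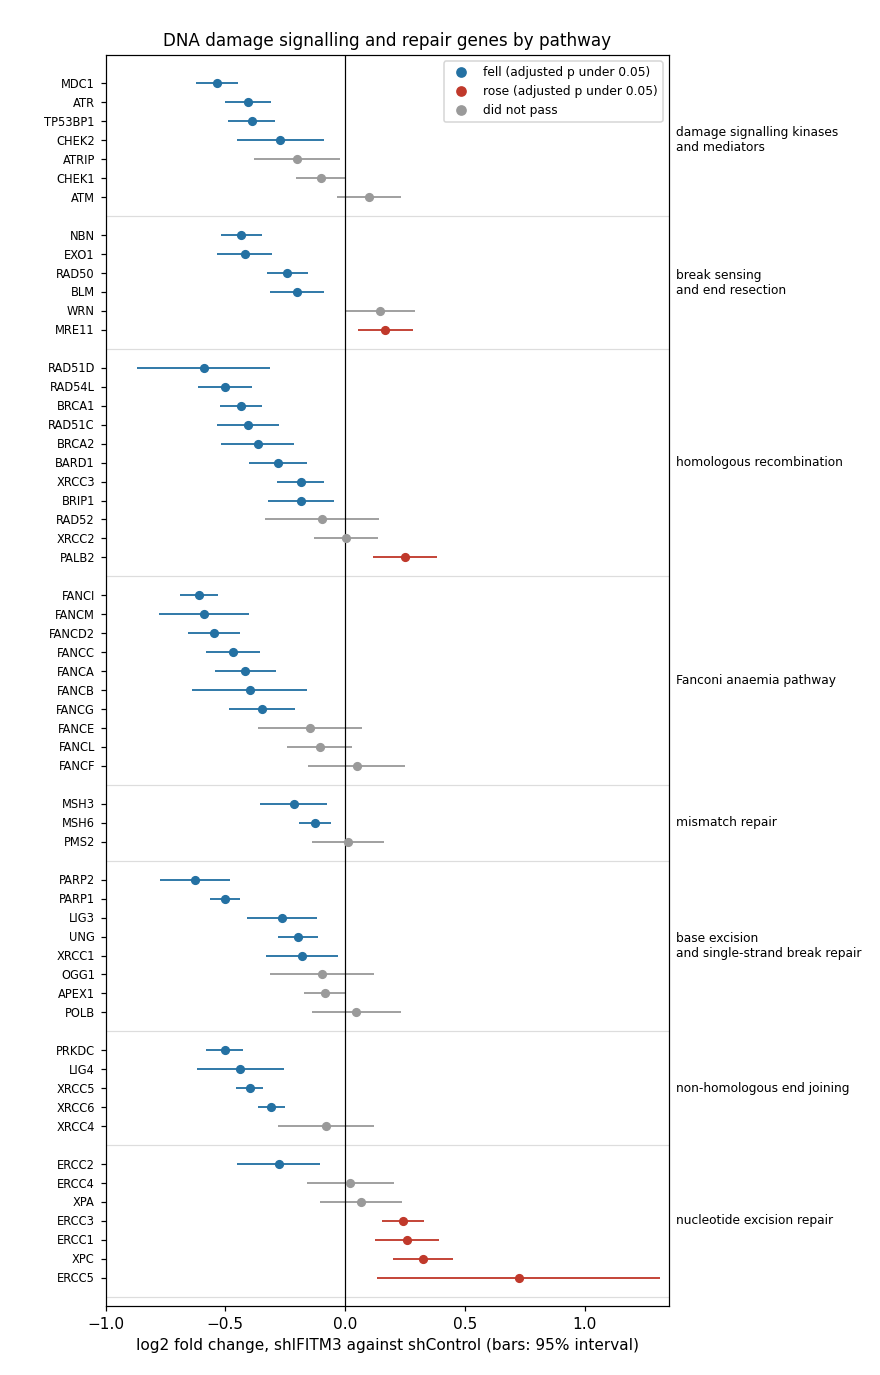
Log2 fold change of shIFITM3 against shControl (horizontal axis) for each of the 57 repair genes, grouped by pathway, with bars for the 95% confidence interval of the edgeR fit. The points run from -0.63 for PARP2 to 0.72 for ERCC5, and 43 of the 57 lie below 0.

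Levels differed widely between genes. Per kilobase of exon (RPKM, computed from the counts), the Ku subunits led in shControl, with XRCC6 at 288 and XRCC5 at 190, followed by PARP1 at 115. The lowest were ATM at 1.58, RAD51D at 0.942 and ERCC5 at 0.138 RPKM, and the median of the 57 was 9.12. When the 57 were ordered by this level, 21 of the 56 pairs of neighbours were apart by more than both SDs, so most neighbours in that order were not resolved. Depth was ample for nearly all: 56 of the 57 had at least 100 counts in every sample. ERCC5 was the exception, with as few as 22. Since 64.4% of its exon length is shared on the same strand with BIVM-ERCC5, listed at 0 in every sample, its counts and its place as lowest are uncertain. Both reads of a pair may have been counted, in which case these counts and the library totals are up to 2 times the number of fragments.

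Promoter windows from RefSeq (GRCh38.p14, 250 bases before to 50 after the start) were found for 51 of the 57 genes, in 73 windows. They were searched on both strands for 4 strings of the kind bound by E2F factors, which drive S phase transcription: TTTCCCGC and also TTTGGCGC and also TTTGCCGC and also TTTCGCGC. A string stood in 12 of the 73 windows (16.4%) and in 3.31% of all 35116 windows of that length. By gene, it was found for 8 of the 31 that fell, 1 of the 6 that rose and 2 of the 14 not called. The 8 were EXO1, MSH6, FANCD2, MSH3, FANCC, UNG, FANCA and XRCC6, the one that rose was XPC, and the other two were PMS2 and XRCC2. The string TTTGAA, the cell cycle homology region of genes expressed in G2 and mitosis, stood in 7 of the 73 windows (9.59%) and in 15.2% of all windows. These matches describe the letters only. Shown 5′ to 3′ on the gene's own strand are 4 of these promoters, 3 of genes that fell and the one that rose, with the strings in capitals. FANCD2 (chr3:10026187-10026466, plus strand), MSH3 (chr5:80654402-80654681, plus strand), MSH6 (chr2:47782895-47783174, plus strand) and XPC (chr3:14178572-14178851, minus strand) are given from 250 bases before the start to 30 after it.
FANCD2: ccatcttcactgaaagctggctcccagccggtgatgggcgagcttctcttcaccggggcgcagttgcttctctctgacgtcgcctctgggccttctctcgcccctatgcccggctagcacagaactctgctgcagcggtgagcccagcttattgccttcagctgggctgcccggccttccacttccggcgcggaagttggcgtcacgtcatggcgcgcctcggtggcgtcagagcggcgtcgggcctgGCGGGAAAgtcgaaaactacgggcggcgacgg
MSH3: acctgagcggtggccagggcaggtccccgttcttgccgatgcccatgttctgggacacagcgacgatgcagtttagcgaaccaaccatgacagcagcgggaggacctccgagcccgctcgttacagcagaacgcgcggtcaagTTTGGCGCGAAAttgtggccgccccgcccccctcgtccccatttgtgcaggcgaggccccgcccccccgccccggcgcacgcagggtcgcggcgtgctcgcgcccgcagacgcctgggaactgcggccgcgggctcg
MSH6: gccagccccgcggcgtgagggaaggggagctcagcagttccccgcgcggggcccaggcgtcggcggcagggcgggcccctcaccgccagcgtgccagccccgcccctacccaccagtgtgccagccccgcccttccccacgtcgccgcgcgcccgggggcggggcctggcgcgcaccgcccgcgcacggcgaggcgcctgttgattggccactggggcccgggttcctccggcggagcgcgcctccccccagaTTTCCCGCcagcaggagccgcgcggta
XPC: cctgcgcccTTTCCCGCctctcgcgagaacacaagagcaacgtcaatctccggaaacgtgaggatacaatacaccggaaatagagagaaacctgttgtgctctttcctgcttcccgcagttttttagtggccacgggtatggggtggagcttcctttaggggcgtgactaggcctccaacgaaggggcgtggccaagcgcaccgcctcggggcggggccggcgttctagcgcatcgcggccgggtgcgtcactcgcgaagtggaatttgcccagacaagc
In FANCD2 the string lies on the opposite strand, and its first base here is at -2 from the start. MSH3 holds a pair of strings that overlap on opposite strands, at -107 and -103. In MSH6 the string begins at 4 after the start and in XPC at -241, far from the start.

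In the signalling layer, 4 of 7 genes fell (57.1%, against 28.4% of all tested genes), none rose and the median log2 fold change was -0.27. MDC1, the mediator that binds phosphorylated histone H2AX at breaks, read 142, 143 and 134 CPM in shControl and 94.6, 99.1 and 95.6 CPM in shIFITM3. The groups were far apart relative to their spread (log2 fold change -0.53, SE 0.042, edgeR adjusted p = 1.01e-10). ATR, the kinase of stalled forks, read 96.7, 91.3 and 92.0 CPM in shControl against 73.9, 69.9 and 67.2 CPM in shIFITM3. All shIFITM3 samples were the lower ones (log2 fold change -0.41, SE 0.047, edgeR adjusted p = 8.06e-08). TP53BP1, which shields broken ends from resection, read 107, 102 and 105 CPM in shControl and 83.3, 73.7 and 82.5 CPM in shIFITM3. It fell by 0.39 on the log2 scale (SE 0.048, edgeR adjusted p = 2.09e-07), although 28.9% of its exon length overlaps TUBGCP4 on the opposite strand, which fell as well (log2 fold change -0.25).

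The 2 apical kinases thus did not share a call, and the same was true of the 2 checkpoint kinases, although both of the latter were lower in all shIFITM3 samples. Whether the fold changes differed within either pair was not tested. ATM, the kinase of double-strand breaks, read 29.6, 29.2 and 27.8 CPM in shControl and 32.4, 30.1 and 30.3 CPM in shIFITM3. Its shIFITM3 samples lay above the controls, but the difference did not pass (log2 fold change 0.10, SE 0.065, edgeR adjusted p = 0.207). CHEK2, the checkpoint kinase downstream of ATM, read 16.9, 15.7 and 16 CPM in shControl and 13.4, 13.0 and 13.6 CPM in shIFITM3. It fell by 0.27 on the log2 scale without overlap (SE 0.089, edgeR adjusted p = 0.012), and its near-identical copies elsewhere in the genome make the value uncertain. CHEK1, the checkpoint kinase downstream of ATR, read 56.7, 56.2 and 57.3 CPM in shControl and 50.9, 54.6 and 52.8 CPM in shIFITM3. Its groups did not overlap, but the log2 fold change of -0.10 (SE 0.05) did not pass (edgeR adjusted p = 0.0815). ATRIP, the partner that brings ATR to single-stranded DNA, was just outside the threshold with a log2 fold change of -0.20 (edgeR adjusted p = 0.0532), and 29.6% of its exon length is shared with TREX1 on the same strand. ATRIP and CHEK1 passed under upper-quartile scaling, with adjusted p of 0.0364 and 0.0434. ATRIP also passed in limma-voom (0.0497) and with a correction for GC content and exon length (0.00926), and CHEK1 without shIFITM3 2 (0.0475).

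**Figure D2:**
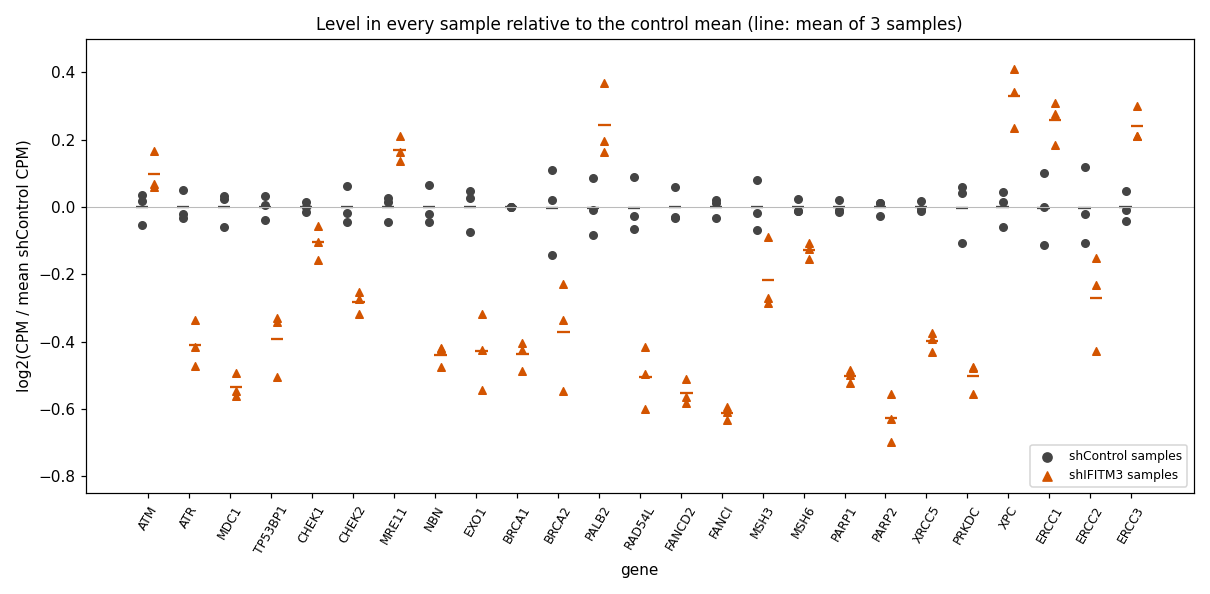
Log2 of each sample's CPM relative to the shControl mean (vertical axis) for the 25 genes chosen by the rule for named genes, with circles for the 3 shControl and triangles for the 3 shIFITM3 samples and a short line at each group's mean. The shIFITM3 triangles lie below the circles for most genes and above them for ATM, MRE11, PALB2, XPC, ERCC1 and ERCC3.

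Among the genes that sense breaks and resect ends, 4 of 6 fell (66.7%, against 28.4% of all tested genes). In this group 1 rose (16.7%, against 27.7%), and the median was -0.22. The MRE11 complex did not move as a unit. NBN, its signalling subunit on chromosome 8, read 137, 129 and 127 CPM in shControl and 98.0, 94.2 and 97.7 CPM in shIFITM3. It fell by 0.43 on the log2 scale (SE 0.042, edgeR adjusted p = 4.5e-09). RAD50, the ATPase of the complex, fell less, from 131 ± 4.89 to 111 ± 3 CPM (log2 fold change -0.24). MRE11, the nuclease, was higher, at 37.4, 39.0 and 39.3 CPM in shControl and 44.6, 42.4 and 43.2 CPM in shIFITM3. The groups did not overlap (log2 fold change 0.17, SE 0.055, edgeR adjusted p = 0.013), but the call was lost without shIFITM3 1 (adjusted p = 0.058) and with all libraries thinned to the shallowest (adjusted p = 0.0512). EXO1, the exonuclease of long-range resection, read 71.9, 66.1 and 70.9 CPM in shControl and 47.8, 55.8 and 51.9 CPM in shIFITM3. All 3 shIFITM3 values were lower (log2 fold change -0.42, SE 0.056, edgeR adjusted p = 7.26e-07). Of the RecQ helicases, BLM fell by 0.20 on the log2 scale and WRN did not pass (log2 fold change 0.14).

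Homologous recombination had 8 of 11 genes fall (72.7%, against 28.4% of all tested genes), 1 rise (9.09%, against 27.7%) and a median of -0.28. BRCA1, the ubiquitin ligase that promotes recombination at broken ends (chr17:43044295-43170327), read 109 CPM in each of the 3 shControl samples and 82.4, 81.2 and 77.8 CPM in shIFITM3. Its groups were separated by many times their SD (log2 fold change -0.44, SE 0.042, edgeR adjusted p = 4.17e-09). BRCA2, which acts on resected ends (chr13:32315077-32400268), read 46.1, 43.3 and 38.7 CPM in shControl and 36.4, 29.2 and 33.8 CPM in shIFITM3. Its spread was wider and the groups came close without overlap (log2 fold change -0.36, SE 0.074, edgeR adjusted p = 0.000177). PALB2, the bridge between BRCA1 and BRCA2, was the only gene of this pathway to rise, from 36.8, 34.4 and 32.7 CPM to 38.8, 44.7 and 39.7 CPM. The gap between the groups was small beside the spread of the shIFITM3 samples (log2 fold change 0.25, SE 0.065, edgeR adjusted p = 0.00204). RAD54L, a motor protein of strand exchange, read 67.5, 69.3 and 75.2 CPM in shControl and 46.6, 53 and 50.1 CPM in shIFITM3. It fell by 0.50 on the log2 scale (SE 0.055, edgeR adjusted p = 3.94e-08). Of its exon length, 18.0% overlaps LRRC41 on the opposite strand, which rose (log2 fold change 0.28).

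The remaining recombination genes did not all pass the test. Among those that assist strand exchange, RAD51D fell from 9.60 ± 0.549 to 6.35 ± 1.28 CPM (log2 fold change -0.59). RAD51C fell by 0.41 and XRCC3 by 0.19 on the log2 scale, and 45.3% of the exon length of XRCC3 overlaps KLC1 on the opposite strand, which also fell (log2 fold change -0.36). XRCC2 was level between the groups within their spread, with 30.6 ± 1.30 CPM in the control and 30.7 ± 0.71 CPM in the knockdown samples. BARD1, the obligate partner of BRCA1, fell by 0.28 on the log2 scale. The helicase BRIP1 fell by 0.18, a call that was lost without shControl 2, shIFITM3 1 or shIFITM3 3 (adjusted p of 0.109, 0.0939 and 0.0566). RAD52, a single-strand annealing protein, overlapped between the groups and did not pass (log2 fold change -0.10).

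Fanconi anaemia genes had the lowest median of the 8 pathways, -0.41. By the test 7 of 10 were lower (70%, against 28.4% of all tested genes) and none higher. The differences in median between pathways were not tested. FANCI and FANCD2 form the clamp that is ubiquitinated at a crosslink. FANCI (chr15:89243979-89317259) read 169, 170 and 164 CPM in shControl and 111, 108 and 110 CPM in shIFITM3. The samples of each group lay close together (log2 fold change -0.61, SE 0.038, edgeR adjusted p = 1.45e-12). FANCD2, whose promoter is printed above, read 61.3, 57.6 and 57.7 CPM in shControl and 39.3, 41.3 and 39.8 CPM in shIFITM3. Its fall was of like size (log2 fold change -0.55, SE 0.053, edgeR adjusted p = 3.9e-09), with the limit that pseudogene copies of FANCD2 can share its reads.

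In the core complex, which carries the ubiquitin ligase, FANCA, FANCB, FANCC and FANCG fell, with log2 fold changes of -0.42, -0.40, -0.47 and -0.35. FANCA shares 22.4% of its exon length with ZNF276 on the opposite strand, which rose (log2 fold change 0.32). FANCM, the translocase that anchors the core complex to DNA, fell from 22.2 ± 1.90 to 14.6 ± 1.39 CPM (log2 fold change -0.59). FANCE, FANCF and the ligase subunit FANCL did not pass, with log2 fold changes of -0.15, 0.05 and -0.11. FANCL shares 26.6% of its exon length with VRK2 on the opposite strand. FANCE and FANCF overlapped between the groups.

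In mismatch repair, 2 of 3 genes fell (66.7%, against 28.4% of all tested genes), none rose and the median was -0.13. MSH6, which recognises single mismatches and whose promoter is printed above, read 267, 267 and 274 CPM in shControl and 242, 247 and 250 CPM in shIFITM3. The shift was small and the samples tight (log2 fold change -0.13, SE 0.032, edgeR adjusted p = 0.00202). MSH3, which recognises longer loops, read 32.9, 34.1 and 36.5 CPM in shControl and 32.4, 28.6 and 28.3 CPM in shIFITM3. Its groups nearly touched (log2 fold change -0.21, SE 0.068, edgeR adjusted p = 0.0095), and the call was lost without shControl 3 (adjusted p = 0.0558) or shIFITM3 3 (adjusted p = 0.0503). PMS2, an endonuclease subunit with several pseudogene copies, overlapped and did not pass (log2 fold change 0.01).

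In base excision and single-strand break repair, 5 of 8 genes fell (62.5%, against 28.4% of all tested genes), none rose and the median was -0.19. PARP1, the main sensor of strand breaks (chr1:226360691-226408093), read 486, 484 and 496 CPM in shControl and 346, 349 and 340 CPM in shIFITM3. This abundant transcript fell to 70.6% of the control level (log2 fold change -0.50, SE 0.03, edgeR adjusted p = 5.52e-13). Its relative PARP2 read 29.5, 29.5 and 28.7 CPM in shControl and 19.9, 18.0 and 18.9 CPM in shIFITM3. It had the lowest log2 fold change of the 57 genes (-0.63, SE 0.072, edgeR adjusted p = 7.14e-08). LIG3, the ligase of this route, and UNG, the glycosylase that removes uracil, fell by 0.26 and 0.20 on the log2 scale. LIG3 shares 43.8% of its exon length with RFFL on the opposite strand, and RFFL fell as well (log2 fold change -0.75). The scaffold XRCC1 was just inside the threshold with overlapping groups, at 28.8, 34.7 and 34.7 CPM in shControl and 28.7, 30.4 and 28.3 CPM in shIFITM3 (log2 fold change -0.18, edgeR adjusted p = 0.0399). That call was lost without shControl 2, shControl 3, shIFITM3 1 or shIFITM3 3 (adjusted p of 0.221, 0.149, 0.0953 and 0.116), in DESeq2 (0.0729) and under total-count scaling (0.0532). The glycosylase OGG1, the endonuclease APEX1 and the polymerase POLB overlapped between the groups and did not pass, although APEX1 passed without shIFITM3 2 (adjusted p = 0.0338) and under upper-quartile scaling (0.0479).

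Non-homologous end joining had 4 of 5 genes fall (80%, against 28.4% of all tested genes), none rise and a median of -0.40. XRCC5, the larger Ku subunit, read 725, 711 and 713 CPM in shControl and 531, 546 and 552 CPM in shIFITM3. The samples of each group lay within a few percent of each other (log2 fold change -0.40, SE 0.028, edgeR adjusted p = 1.36e-11). Its partner XRCC6 fell from 847 ± 12.3 to 684 ± 12.2 CPM (log2 fold change -0.31). PRKDC, the catalytic subunit of the DNA-dependent protein kinase that Ku recruits, read 531, 537 and 479 CPM in shControl and 371, 351 and 370 CPM in shIFITM3. All 3 shIFITM3 samples were below the lowest control (log2 fold change -0.50, SE 0.038, edgeR adjusted p = 4.52e-11). LIG4, the ligase of the pathway, fell by 0.44 on the log2 scale, and its scaffold XRCC4 overlapped between the groups and did not pass (log2 fold change -0.08).

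In nucleotide excision repair 4 of 7 genes rose (57.1%, against 27.7% of all tested genes). In this route 1 gene fell (14.3%, against 28.4%), and the median was 0.24. Among these rises, that of ERCC5 was the least secure, as given below. XPC, which detects the distorted helix (chr3:14145147-14178601, promoter printed above), read 33.5, 36.0 and 35.3 CPM in shControl and 44.3, 41.1 and 46.4 CPM in shIFITM3. Its groups were clearly apart (log2 fold change 0.33, SE 0.06, edgeR adjusted p = 6.29e-05). ERCC3, one of the helicases of the TFIIH complex that opens the DNA, read 99.1, 95.2 and 93.2 CPM in shControl and 111, 111 and 118 CPM in shIFITM3. It rose without overlap (log2 fold change 0.24, SE 0.042, edgeR adjusted p = 3.29e-05). ERCC1, a subunit of the nuclease that cuts 5′ of the lesion, read 29.4, 31.8 and 34.1 CPM in shControl and 36.1, 39.4 and 38.5 CPM in shIFITM3. It was higher in all 3 shIFITM3 samples (log2 fold change 0.26, SE 0.065, edgeR adjusted p = 0.00163), and 39.4% of its exon length overlaps CD3EAP on the opposite strand, which was not called (log2 fold change 0.16).

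ERCC2, the other TFIIH helicase, was the only one of these 7 genes that fell, from 24, 26.4 and 22.6 CPM in shControl to 18.1, 20.7 and 21.9 CPM in shIFITM3. The groups came close (log2 fold change -0.28, SE 0.084, edgeR adjusted p = 0.00687), and the call was lost without shControl 2 (adjusted p = 0.0831) or shIFITM3 1 (adjusted p = 0.0541). ERCC5, the nuclease that cuts 3′ of the lesion, had the highest fold change of the 57 genes and the least data, at 1.04, 1.47 and 0.803 CPM in shControl and 1.86, 2 and 1.88 CPM in shIFITM3. Its rise of 0.72 on the log2 scale (SE 0.29, edgeR adjusted p = 0.0346) lost its call without any single library except shControl 2, with adjusted p from 0.0637 to 0.139. In the annotation 64.4% of its exon length is shared with the readthrough gene BIVM-ERCC5, which was listed at 0 in every sample, so its counts are uncertain. XPA, the damage verifier, and ERCC4, the nuclease partner of ERCC1, overlapped between the groups, with log2 fold changes of 0.07 and 0.02.

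The remaining TFIIH subunits, from a list of further excision and end-joining genes, did not share one direction either. GTF2H1, GTF2H5 and the kinase CDK7 rose, with log2 fold changes of 0.58, 0.32 and 0.58. GTF2H3, GTF2H4 and the cyclin CCNH fell, with log2 fold changes of -0.36, -0.33 and -0.26, and MNAT1 did not pass (log2 fold change -0.01). GTF2H2 was listed at 0 in every sample and could not be tested, and whether the gene is silent was not settled by these counts. Among the other recognition factors, RAD23B, the partner of XPC, fell from 611 ± 3.34 to 475 ± 10.5 CPM, and DDB2, the sensor of ultraviolet lesions, from 39.2 ± 2.04 to 27.6 ± 1.41 CPM. ERCC6, which acts where transcription stalls, rose from 35.6 ± 0.211 to 48.4 ± 1.31 CPM. The TFIIH subunits, DDB2 and ERCC6 were picked for naming after their values were seen.

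Partners of one complex were compared within each sample as the log2 ratio of their CPM, for 13 pairs chosen with the values known. The ratio of PALB2 to BRCA1 was -1.57, -1.66 and -1.74 in shControl and -1.08, -0.86 and -0.97 in shIFITM3, a 1.6-fold shift. MRE11 against RAD50 shifted by 0.41, FANCL against FANCA by 0.31 and XRCC4 against LIG4 by 0.36, the second partner of each pair being one that fell. ERCC2 against ERCC3 shifted the other way, by -0.51, to 0.702 of its control ratio. FANCD2 against FANCI shifted by 0.06 and PRKDC against XRCC5 by -0.10, both with overlapping groups. The smallest p that 3 against 3 samples allow in an exact 2-sided permutation test is 0.1 (0.13 after Benjamini-Hochberg adjustment over the 13), so no ratio could pass 0.05.

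**Figure D3:**
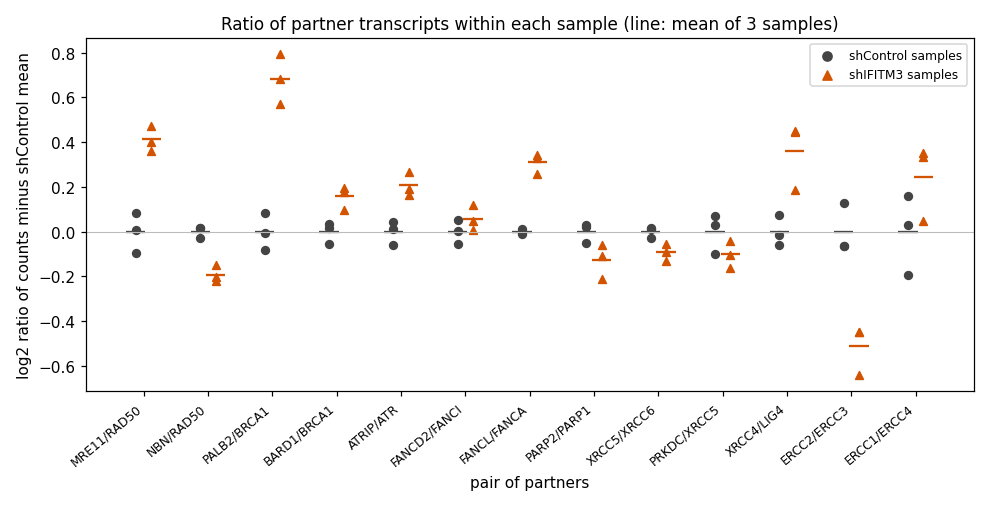
Log2 ratio of partner genes in each sample relative to the shControl mean of that ratio (vertical axis), with circles for shControl and triangles for shIFITM3. PALB2 against BRCA1 lies highest and ERCC2 against ERCC3 lowest.

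The same routes hold further repair genes, taken from lists that exclude the 57. Of 103 such genes 99 were tested, of which 44 fell (44.4%) and 21 rose (21.2%), with a median of -0.13. Among all tested genes 28.4% fell and 27.7% rose. Further recombination and resection genes had 13 of 20 fall (65%) and 3 rise (15%), with a median of -0.31. DNA2, a nuclease of resection, fell from 48.0 ± 2.31 to 30.4 ± 2.48 CPM, and POLQ, the polymerase of microhomology-mediated joining, from 62.0 ± 3.49 to 41.6 ± 2.04 CPM. RECQL5 and SWI5 rose, with log2 fold changes of 0.31 and 0.20. Further Fanconi genes had 7 of 11 fall (63.6%) and 2 rise (18.2%), with a median of -0.29. That list also holds UIMC1, ABRAXAS1 and BRCC3, which belong to a BRCA1 complex and not to the Fanconi pathway proper, so its counts are not of that pathway alone. USP1, which removes ubiquitin from the FANCD2 and FANCI clamp, fell by 0.43 on the log2 scale and BRCC3, of the BRCA1 complex, by 0.37. WDR48 and FAAP20 rose by 0.18 and 0.25.

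Further signalling genes were divided, with 7 of 18 lower (38.9%), 3 higher (16.7%) and a median of -0.01. H2AX, the histone that ATM phosphorylates at breaks and MDC1 binds, read 71.2, 78.7 and 75.9 CPM in shControl and 147, 148 and 140 CPM in shIFITM3. Its transcript thus rose nearly to double while that of MDC1 fell (log2 fold change 0.94, SE 0.044, edgeR adjusted p = 9.06e-15). RNF168, a ubiquitin ligase of the same chromatin response, rose by 0.30, and the fork protection genes TIMELESS and CLSPN fell by 0.35 and 0.34 on the log2 scale. Further excision and end-joining genes had 12 of 38 rise (31.6%) and 14 fall (36.8%), shares near the 27.7% and 28.4% of all tested genes (median -0.01). POLM, a gap-filling polymerase of end joining, read 22.6, 19.9 and 20.1 CPM in shControl and 52.4, 59.2 and 54.5 CPM in shIFITM3. All shIFITM3 values were more than double the controls (log2 fold change 1.42, SE 0.066, edgeR adjusted p = 6.73e-15), beside the falls of XRCC5, XRCC6, PRKDC and LIG4. LIG1, the replicative ligase, fell by 0.49 on the log2 scale. Of 12 genes of translesion synthesis and direct reversal, 3 fell (25%, near the 28.4% of all tested genes), among them ALKBH2 and POLH, and 1 rose, the ubiquitin-conjugating enzyme UBE2B (log2 fold change 0.51).

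Genes of the cell cycle fell as well. Of 36 S phase genes 29 fell (80.6%, against 28.4% of all tested genes) and none rose, with a median of -0.32. This list shares FEN1, RPA2, RAD51AP1, TIPIN, USP1 and CLSPN with the further repair lists, so the 2 counts are not separate. The summed level of the 36 was 4021 to 4102 CPM in shControl and 3311 to 3362 CPM in shIFITM3. RRM1, a subunit of ribonucleotide reductase, fell from 170 ± 3.73 to 115 ± 5.07 CPM, and the repressor E2F8 from 61.7 ± 0.719 to 38.2 ± 3.05 CPM. Of 52 G2 and mitosis genes 50 fell (96.2%) and 2 rose (3.85%, against 27.7% of all tested genes), with a median of -0.47. Their sum went from 11242 to 11332 CPM in shControl down to 8096 to 8396 CPM in shIFITM3. TOP2A, the topoisomerase of chromosome separation, fell from 563 ± 8.16 to 335 ± 6.99 CPM, and HMGB2 from 225 ± 6.56 to 127 ± 6.81 CPM. Of 22 p53 target genes, a list that shares XPC, DDB2, POLH and PPM1D with the repair lists, 11 rose (50%) and 4 fell (18.2%), with a median of 0.17. CDKN1A, the cyclin-dependent kinase inhibitor, rose from 27.7 ± 2.24 to 75.3 ± 1.61 CPM, and MDM2, the p53 ubiquitin ligase, from 52.5 ± 2.44 to 87.1 ± 3.10 CPM. The part of cell cycle position in the repair gene values was not tested.

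**Figure D4:**
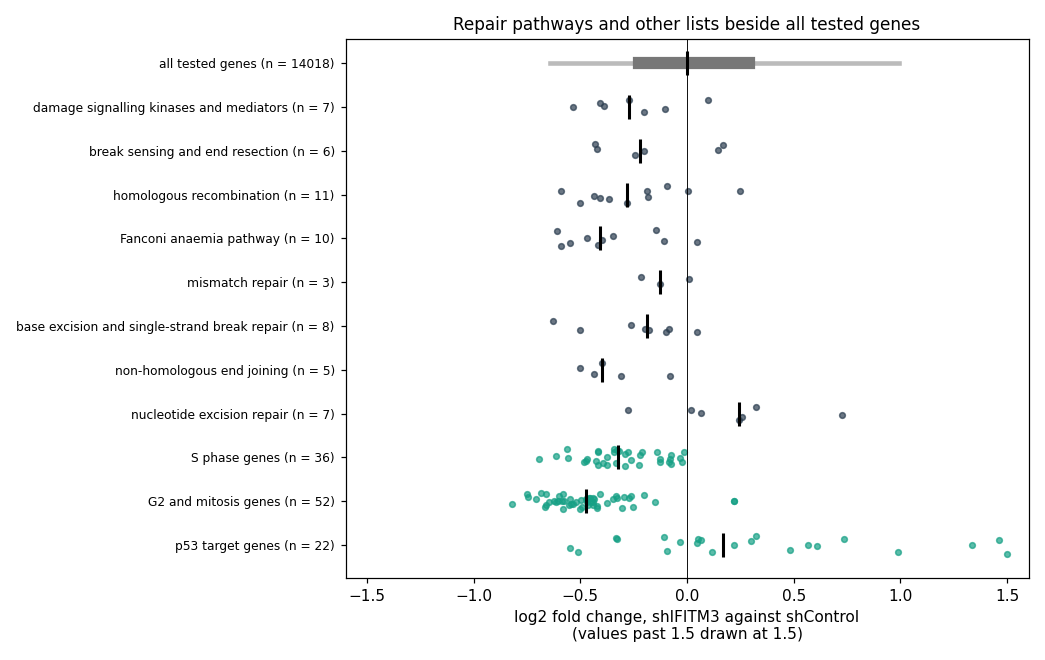
Log2 fold change of shIFITM3 against shControl (horizontal axis) for every tested gene of the 8 repair pathways and of the S phase, G2 and mitosis and p53 target lists, with a vertical bar at each median. The band at the top spans the 5th to 95th and 25th to 75th percentiles of all 14018 tested genes, and the nucleotide excision repair median (0.24) is the only repair pathway median above 0.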

How the data were processed

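mRNA libraries of 3 shControl and 3 shIFITM3 samples were sequenced. The deposited values are raw counts per gene. The submitters' processing notes name HISAT2 2.2.1, featureCounts (Subread 2.0.6), fastp 0.23.4, SAMtools 1.20 and FastQC 0.12.1, with the hg38 genome. Annotation and strandedness of the counting were not given in the sources used here. Reads of genes that overlap on opposite strands may therefore not be separated, although the kit is stranded per the labels. Of counts from 1 to 20, 76.5% were even, so the reads of a pair may have been counted separately, which would give up to 2 counts per fragment. Genes were filtered by group with edgeR 4.0.16 (filterByExpr), scaled by TMM and tested with its quasi-likelihood test, 2-sided, with Benjamini-Hochberg adjustment over all 14018 tested genes and a threshold of 0.05. CPM uses the TMM-scaled library size. A count of 0 allows up to 3 counts, 0.039 to 0.141 CPM. Exon lengths and overlaps come from the GENCODE basic annotation. The test was checked on simulated data. The 57 genes, the further lists and the rule for named genes (key signalling and repair genes, and up to 2 of smallest p per direction in each pathway or list) were chosen with earlier results of these data known. Alternatives are given in the closing section.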

Additional observations from a re-analysis of the deposited data

How the results depend on the processing

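The counts were recomputed under 17 alternatives: scaling by total counts, by upper quartile or by relative log expression, a filter on low counts left out or made stricter (50 counts in 3 samples), DESeq2 1.42.0, limma-voom (limma 3.58.1), a replicate block, thinning to the shallowest library, a test against a 1.5-fold change, a correction for GC content and exon length (added after seeing the data), and leaving out each sample. No called repair gene changed direction. Testing against a 1.5-fold change left 807 tested genes that rose and 308 tested genes that fell, and 0 repair genes in either direction. Under the other 16 alternatives, 31 of the 35 falls, 4 of the 6 rises and 12 of the 16 uncalled genes stayed on their side of the threshold. Leaving out 1 sample gave 4 to 6 repair genes that rose and 32 to 37 that fell. With a replicate block, 6 rose and 35 fell, and 3865 and 4005 of all genes. Same-numbered samples deviated together only weakly (correlations of 0.0157, 0.033 and 0.0063), so the numbers are not shown to pair them. ERCC5 had the fewest counts: of the 57 genes, the stricter filter removed it alone. Whether its low counts come from depth, low expression or the exons shared with BIVM-ERCC5 was not tested.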
